A study of Mus musculus and Homo sapiens with 22 samples.

Results

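Retained introns were followed in a tau aggregation model: 68321 intron coordinates, each counted once, that the authors' deposited splicing table lists as an alternative to splicing. They come from 71480 of its 107827 local splicing variations, that is 66.3% of them, and lie in 12151 of its 13524 genes. A local splicing variation is the set of all junctions that leave 1 exon (a source variation, 49150 here) or enter 1 exon (a target variation, 22330 here). The introns were chosen as the last entry of every variation whose type string ends in the mark for a retained intron, so their choice used no measured value. Each entry has a percent spliced in (PSI), given on a scale from 0 to 1: the share of the variation's transcripts that keep the intron, as estimated from the reads. Of the 68321 introns, 65306 occur in 1 variation and 3015 in more, where the mean of their entries was used. For 28051 introns, 41.1%, the only other choice in the variation is 1 splice junction, so that any rise of the intron is a fall of that junction by the same amount.

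The study holds 22 samples, of which 6 were taken at 96 h and entered the splicing table. They are HEK293 cells, a human embryonic kidney line, that carry the repeat domain of tau with the P301S mutation fused to CFP and to YFP (genotype Tau-RD-P301S-CFP/YFP). The fusion proteins form fluorescent inclusions when they are seeded. In 3 plates the cells were mock transfected, and in 3 plates (tau_agg) they received, by lipofectamine, 200 ug per dish of clarified brain homogenate from P301S mice and were kept for 96 h. Both groups carry the tau fusions, and each replicate is 1 plate of the same line, so replicates are cultures and not independent lines. The protocol text names wild-type as well as P301S homogenate without saying which dish received wild-type material, and the group labels were followed. Libraries were made from total RNA with random hexamer primers, and positions are on hg38. The 96 h splicing table holds 1 PSI value per group, and a second 96 h table, of intron reads, holds the authors' log2 fold change between the groups with its standard error and p. Neither holds a value per plate or a library depth, so PSI has no spread between plates here and no test of the plates was run beyond the authors' own. At 24 h, 2 libraries of total RNA and 2 of sorted tau aggregates from these cells give gene levels in FPKM, fragments scaled to transcript length and library size. Both 24 h groups are listed with the dose of 200 ug, so the total RNA at 24 h is not from mock cells. In total RNA at 24 h VIM stood at 197 and 190 FPKM, NEFM at 27.4 and 26.3 and NEFL at 17.1 and 16.3. PAX2 and LHX1, also looked for in these cells, were low, at 2.65 and 2.26 and at 0.618 and 0.824. Of genes of other lineages, HBB was listed at 0 in both libraries, PTPRC at 0.0273 and 0 and ALB at 0.192 and 0.0951.

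An intron is removed when U1 binds its 5′ end and U2 its branch point and both transesterifications are complete. Introns that are short, rich in G and C or flanked by weak splice sites are retained more often than others in mammalian cells. Many transcripts with a retained intron stay in the nucleus, where some gather near nuclear speckles, the bodies that hold SR proteins and the scaffold proteins SON and SRRM2. A retained intron that reaches the cytoplasm usually brings a premature stop codon and with it nonsense-mediated decay.

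Retention was nearly level between the groups over all introns. The median PSI was 0.188 in mock cells (quartiles 0.104 and 0.389) and 0.192 in tau_agg cells (quartiles 0.106 and 0.396), and the means were 0.313 and 0.315. PSI reached 0.5 or more for 13481 introns in mock and for 13572 in tau_agg cells. Of all introns, 94.7% had in the authors' deposited table an expected change under 0.05, with a median of 0.000149 and a span from -0.0752 to 0.0903 between the 1st and the 99th percentile. Among introns with an expected change of at least 0.05, 2083 were higher and 1524 lower in tau_agg cells, so 57.7% were higher. By the plain difference of the 2 expected PSI values, which was often further from 0 than the expected change, 4939 introns were higher and 4424 lower by at least 0.05, or 52.8% higher. The small excess of higher introns over the whole set was thus present on both scales and was smaller on the plain one. It did not hold at every mock PSI. By the expected change 80% were higher at a mock PSI of 0.101 to 0.2 and 50.6% at 0.501 to 0.8. At 0.801 or more, 182 were higher and 443 lower, or 29.1% higher, and 33.6% by the plain difference. These bins use the mock value itself, and an intron near 0 or 1 has little room to move 1 way.

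**Figure D1:**
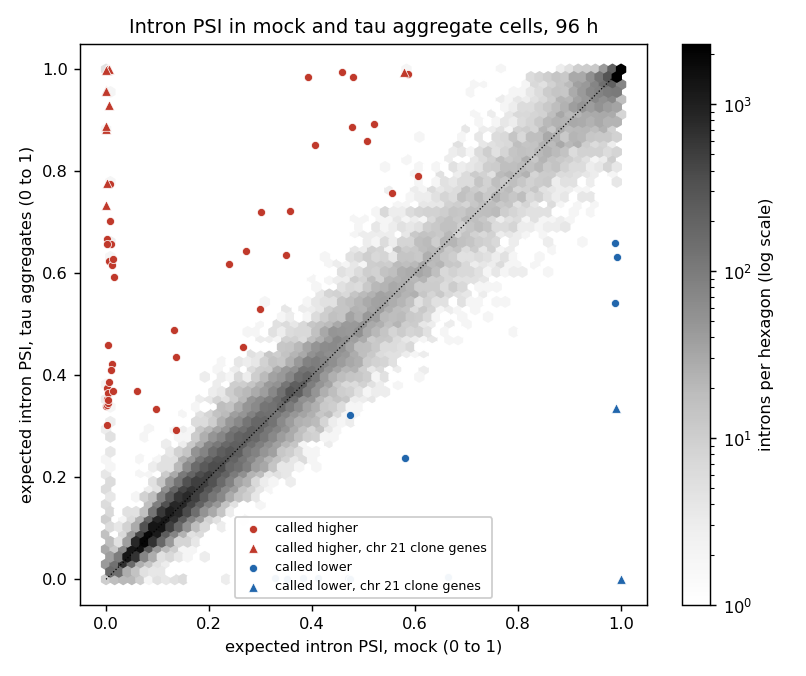
Expected PSI of each intron in mock (x axis) and tau_agg cells (y axis), both from 0 to 1, with the number of introns per hexagon in grey on a log scale, called introns in red (57 higher) and blue (14 lower), and triangles for the 2 clone-named chromosome 21 genes. Most introns lie along the dotted diagonal, and 34 of the 57 introns called higher stand at a mock PSI of 0.02 or less.

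The balance between higher and lower introns went with intron length, which ran from 1 to 1096453 bases with a median of 3417. In the shortest decile, introns of up to 508 bases, the median PSI was 0.386 in mock and 0.397 in tau_agg cells, and 307 introns were higher by an expected 0.05 or more against 128 lower, or 70.6% higher. In the second decile, 509 to 1140 bases, the counts in the authors' deposited table were 285 and 124. In the ninth decile, 9146 to 14888 bases, they were 154 and 183, or 45.7% higher, and in the longest decile 260 and 271. With the plain difference of the group PSI values the share of higher introns went from 67.6% in the shortest decile to 42.2% in the longest. Short introns were also the more retained ones in mock cells: the median mock PSI fell from 0.386 in the shortest decile to 0.138 in the ninth. The excess of higher introns was largest in the 2 shortest deciles, and above 9146 bases lower introns were the more frequent. With 1 value per group these shares have no replicate check.

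**Figure D2:**
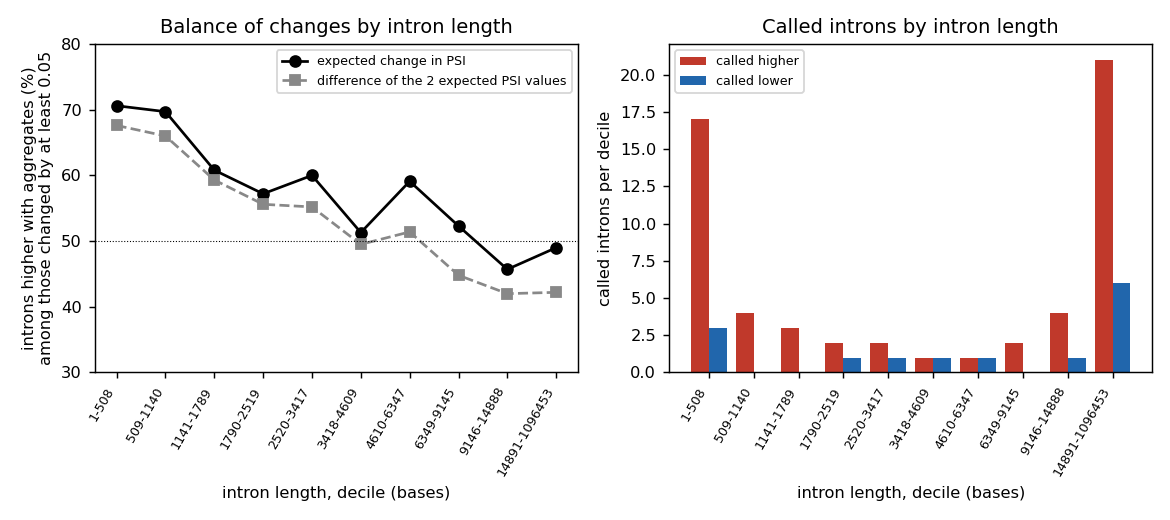
Left, the share of introns (y axis, percent) that were higher in tau_agg cells among those changed by at least 0.05, per decile of intron length (x axis, bases), by the expected change (circles) and by the difference of the 2 expected PSI values (squares). Right, the number of called introns per decile: 17 of the 57 introns called higher fall in the shortest decile and 21 in the longest, with the 2 clone-named chromosome 21 genes included.

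An intron was called where the authors' deposited table gives an expected change of at least 0.1 and a probability of at least 0.95 that PSI changed by 0.2 or more. By this rule 57 introns in 44 genes rose in tau_agg cells, 0.0834% of all introns, and 14 introns in 13 genes fell, 0.0205%. Variations with an intron were not called more often than those without: 81 of 71480 with an intron had any entry called, 0.113%, against 43 of 36347 without, 0.118%. Called introns were far from the typical one in level, since 34 of the 57 that rose had a mock PSI of 0.02 or less, which only 556 introns in all had. Their median went from 0.010 in mock to 0.657 in tau_agg cells. The 14 that fell went from a median of 0.527 to 0.0035, and 8 of them ended at 0.02 or less. An intron near 0 in 1 group can be listed because of its reads in the other, and how many reads stand behind such a value is not given. By length, 8 of the 57 that rose were under 100 bases (14.0%, against 2.14% of all introns) and 24 were over 10 kb (42.1%, against 17.9%). Protein-coding genes held 35 of the introns that rose and 9 of those that fell, with 89.4% of all introns. Long intergenic RNA genes held 13 and 2, with 0.859% of all introns, and all 15 lie in the 2 genes described next, whose values are uncertain. The level and length contrasts above include these 15. Among them are introns of 27, 42 and 81 bases and several over 10 kb, and most of the 13 that rose had a mock PSI of 0.02 or less.

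The largest changes of the whole set were in 2 clone-named non-coding genes on the short arm of chromosome 21, an arm that carries repeats of ribosomal DNA. FP236383.1, near chr21:8390009-8446855, had 10 introns called higher and 2 called lower among 138 listed. FP671120.2, near chr21:8206480-8208654, had 3 called higher among 46 listed. Within FP236383.1 overlapping introns went opposite ways. The intron at chr21:8390009-8434201 rose from 0.001 to 1.000, and the one at chr21:8394862-8395036, inside it, from 0 to 0.998. The one at chr21:8396182-8440183, which overlaps the first for most of its length, fell from 0.999 to 0.001. In FP671120.2 the 174-base intron at chr21:8208210-8208385 rose from 0.005 to 1.000. Of the 14 introns in the table with an expected change over 0.7 in size, 13 lie in these 2 genes. Many of these introns overlap each other or span about 44 kb, and near-identical repeat copies can share reads, so their values are uncertain. Without the 2 genes, 44 introns were called higher and 12 lower.

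Among introns of named genes, the largest rises were in genes of varied function. NIT1, an amidase that repairs a side product of glutathione, kept the intron at chr1:161122338-161124141 (1802 bases) with PSI 0.008 in mock and 0.775 in tau_agg cells. In the same variation a longer junction, chr1:161120232-161124141, which enters the same exon from farther upstream, went from 0.961 to 0.215. EMC3, a subunit of the complex that inserts membrane proteins into the endoplasmic reticulum, kept the intron at chr3:9997389-9998455 (1065 bases) with PSI 0.008 and 0.703. There the junction that removes this same intron went from 0.825 to 0.240. By PSI both introns were thus almost absent from mock transcripts of the variation and were in most of its transcripts after seeding. Each was read from 1 end only, the target end.

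BRF1, the TFIIIB subunit that brings RNA polymerase III to tRNA genes, had a 23593-base intron, chr14:105228913-105252507, at PSI 0.002 in mock and 0.667 in tau_agg cells. ZNF775, a zinc finger protein, had a 19480-base intron, chr7:150368941-150388422, at 0.002 and 0.657. TNK2, a cytoplasmic tyrosine kinase, had one of 19878 bases, chr3:195888606-195908485, at 0.004 and 0.459. In each of these 3 genes the intron rose from near 0 although it is longer than most introns in the set. The junction that fell most beside the BRF1 intron, chr14:105241414-105252507, is a shorter splice inside it and went from 0.750 to 0.249.

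Other large rises were in very short introns. MTA1, a subunit of the NuRD deacetylase complex, had a 42-base intron, chr14:105437248-105437291, at PSI 0.009 and 0.657. BOP1, which acts in assembly of the large ribosomal subunit, had a 65-base intron on chromosome 8 at 0.393 and 0.986. KLHDC4, a kelch domain protein, had a 51-base intron, chr16:87733583-87733635, at 0.458 and 0.996. These introns are shorter than a typical spliced human intron. By PSI, read from 1 end, nearly all transcripts of the variation kept them in BOP1 and KLHDC4 after seeding. MRTFA, a coactivator of serum response factor, had a 353-base intron, chr22:40501035-40501389, at 0.480 and 0.986. ATAD3B, a mitochondrial ATPase, had a 795-base intron, chr1:1477848-1478644, at 0.405 and 0.852. In the authors' deposited table these 10 introns had expected changes from 0.443 in TNK2 to 0.767 in NIT1.

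Fewer named genes lost an intron. L3HYPDH, a dehydratase of hydroxyproline, is read from both ends at chr14:59461173-59475869 (14695 bases). In the target variation its PSI went from 0.648 to 0.015, but in the source variation only from 0.512 to 0.462, so the call rests on 1 of its 2 ends. PWWP3A, a chromatin protein, had a 43-base intron, chr19:1368863-1368907, at 0.989 in mock and 0.542 in tau_agg cells. ABR, a regulator of small GTPases, had a 130-base intron, chr17:1006774-1006905, at 0.992 and 0.632. USP7, a deubiquitinase that acts on MDM2 and p53, had a 390-base intron, chr16:8953798-8954189, at 0.988 and 0.660. By PSI, read from 1 end, these 3 introns were in nearly every transcript of their variation in mock cells and fell to between 0.542 and 0.660.

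The other 3 named introns that fell ended near 0. CUX1, a homeodomain protein, had one of 3391 bases, chr7:102167054-102170446, at 0.382 and 0.003. The readthrough gene RBM14-RBM4 had one of 22642 bases, chr11:66617057-66639700, at 0.351 and 0.001. SLC20A2, a phosphate transporter, had one of 68260 bases on chromosome 8 at 0.412 and 0.003. In the authors' deposited table the expected changes of the 7 named introns that fell lay between -0.437 in PWWP3A and -0.308 in USP7, with L3HYPDH taken as the mean of its entries. Those entries were -0.635 at the target end and -0.022 at the source end.

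**Figure D3:**
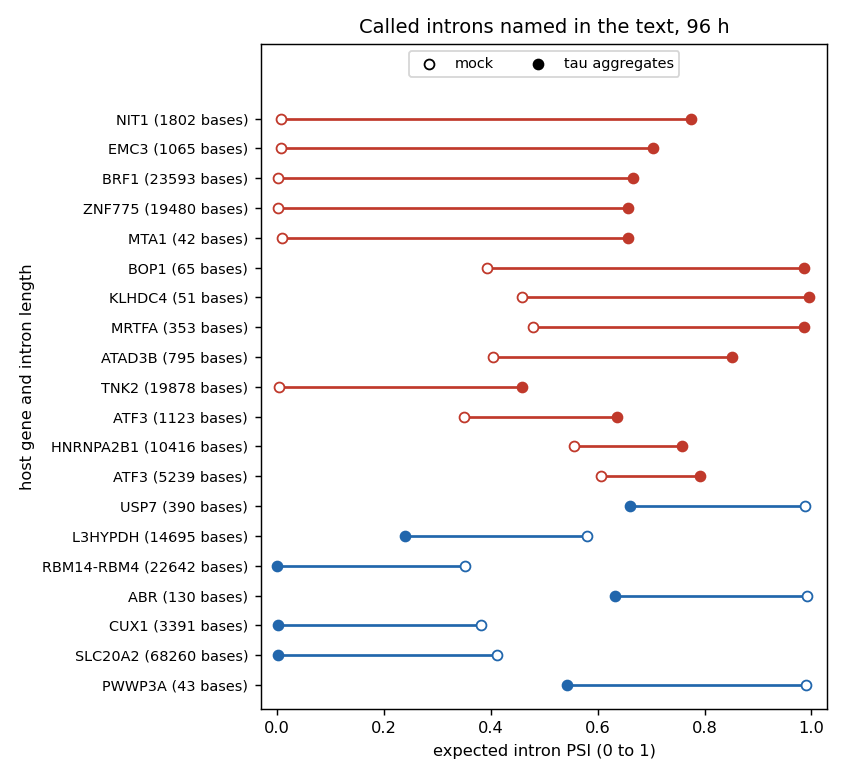
Expected PSI (x axis, 0 to 1) of called introns in mock (open circles) and tau_agg cells (filled circles), with the host gene and intron length in bases on the y axis, as the mean over entries for introns in more than 1 variation (L3HYPDH, HNRNPA2B1 and the longer ATF3 intron). Rises are red and falls blue, and the largest rise is NIT1, from 0.008 to 0.775.

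An intron that is kept whole should show from both of its ends, and 1562 introns had a source and a target value in 1 gene. The 2 expected changes had the same sign for 74.4% of them, with a Pearson r of 0.519 across introns, which are not independent replicates and share libraries and the intron's reads. The mock PSI differed between the 2 ends by a median of 0.06. Of 53 such introns with a change of at least 0.1 at either end, 42 had the same sign at both. Of the 71 called introns, 12 were in more than 1 variation and 3 were called in more than 1. ZFR, a zinc finger RNA-binding protein, had a 24125-base intron, chr5:32420103-32444229, at 0.010 in mock at both ends and at 0.467 (source) and 0.356 (target) in tau_agg cells. FBRSL1, a fibrosin-like protein, had a 20014-base intron, chr12:132527988-132548003, at 0.012 in mock at both ends and at 0.469 and 0.376. The third is a 13418-base intron, chr5:139293820-139307239, which is listed under MATR3, a nuclear matrix protein that binds RNA, and under a second, unnamed gene that overlaps it. Under the unnamed gene it went from 0.002 to 0.645 at the source and from 0 to 0.387 at the target. Its entry under MATR3, at the source, went from 0.393 to 0.436 and was not called, so this call rests on the entries of the unnamed gene. MATR3 was chosen for mention after its values were seen. In TTC14 the 2 ends differed: its intron at chr3:180610003-180617380 went from 0.011 to 0.437 at the target end but from 0.585 to 0.624 at the source end.

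A second file of the authors counts reads inside introns and compares the same 2 groups. Its header does not say which group is the numerator. Of the matched introns whose expected PSI change was at least 0.05, 391 of 438 had a log2 value above 0 there, and 198 of 259 with a change of -0.05 or below had one below 0. So a value above 0 was read as more reads in tau_agg cells, and this agreement in sign cannot be used again as support. Exact coordinates matched for 23655 of the 68321 introns, 34.6%, and 22868 of them had an adjusted p. The files give bulk RNA, in which more cells with a transcript and more of it per cell cannot be told apart, and more intron reads can come with more transcripts of the gene.

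At an adjusted p under 0.05 in the authors' deposited table, 463 of the 22868 matched introns, in 331 genes, had more reads in tau_agg cells, and 4 had fewer. That is 2.02% and 0.0175%, against 1.5% and 0.146% of all 82091 introns tested in that file. The 463 had a median mock PSI of 0.151 and a median tau_agg PSI of 0.191. Their median expected PSI change was 0.0211, against 0.000905 for all matched introns tested. Only 14 of them had an expected PSI change of at least 0.1, and none was called by PSI, the highest probability being 0.730. In the other direction, 69 of the 71 introns called by PSI had no match in the read file. The 2 that had one were ZFR and FBRSL1, with log2 values of 0.14 ± 0.14 (SE, adjusted p = 0.781) and 0.42 ± 0.20 (SE, adjusted p = 0.366) in the authors' deposited table. With 2 such introns, the overlap between the 2 kinds of call could hardly be read from these files. Across all matched introns the Spearman correlation of the 2 measures was 0.579 and the Pearson r 0.440, across introns that share libraries. The sign of both was set when the numerator was read from PSI. The same holds for the sign of the median PSI change of the 463, so only the sizes are results here. The read counts also differed with intron length, in a direction that rests on the same reading. In the shortest quintile of matched introns, 53 to 1354 bases, 158 of 4578 had more reads (3.45%) and the median log2 value was 0.22, while in the longest quintile, 6673 to 76871 bases, 62 of 4574 did (1.36%) and the median was -0.02.

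**Figure D4:**
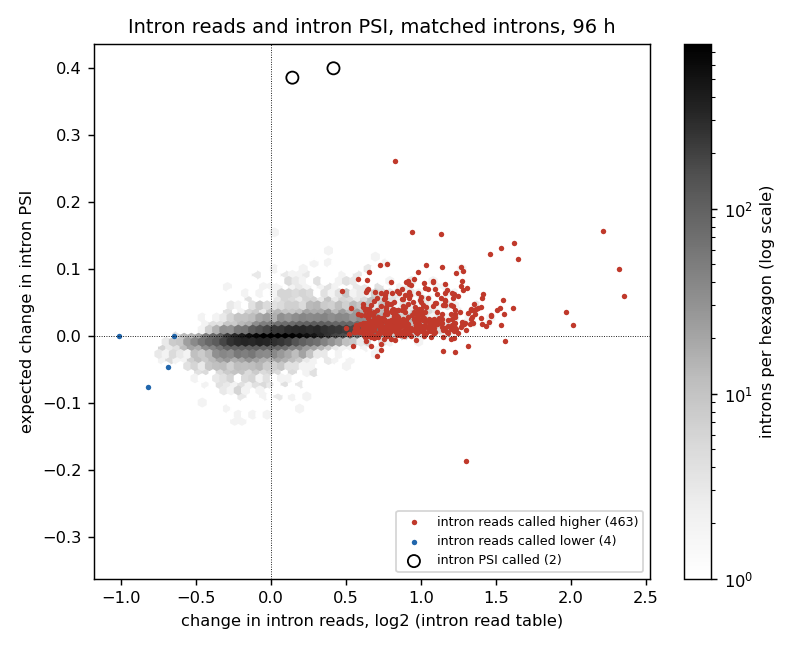
Expected change in intron PSI (y axis) against the log2 change in intron reads (x axis) for 22868 matched introns, in grey by number per hexagon on a log scale. The 463 introns with more reads (red) lie mostly between 0 and 0.1 in PSI change, and the 2 circled introns called by PSI, in ZFR and FBRSL1, lie at small read changes.

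Among matched introns the smallest adjusted p belonged to ATF3, a transcription factor of the integrated stress response. Its intron at chr1:212615261-212618127 had a log2 value of 1.97 ± 0.18 (SE, adjusted p = 4.98e-23) in the authors' deposited table, while its PSI was 0.114 in mock and 0.155 in tau_agg cells. ATF3 was also 1 of only 2 named genes with 2 introns called by PSI. The intron at chr1:212618234-212619358 (1123 bases) rose from 0.350 to 0.637, as the junction that removes it went from 0.642 to 0.361. The second, chr1:212614127-212619367, spans it and rose from 0.219 to 0.586 at its target end, but stood at 0.993 and 0.998 at its source end. PPP1R15A, the phosphatase subunit that reverses this response, followed, with a log2 value of 2.35 ± 0.31 (SE, adjusted p = 2.98e-10) in the authors' deposited table for a 573-base intron whose PSI was 0.224 and 0.297. SQSTM1, the autophagy receptor p62, had 1.21 ± 0.16 (SE, adjusted p = 9.60e-10) in the authors' deposited table, with PSI at 0.046 and 0.106. In the read-matched introns given here for ATF3 (chr1:212615261-212618127), PPP1R15A and SQSTM1, the reads rose 2-fold or more while PSI stayed within 0.1 of mock. The genes of this and the next paragraph were chosen after their values were seen, as those with the smallest adjusted p, with the most such introns or with the largest PSI change.

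EEF2, the factor that moves the ribosome along the mRNA, had 7 of its 8 tested introns called, with log2 values from 0.83 to 1.56 in the authors' deposited table. Its PSI did not follow: the median expected change of the 7 was -0.00524, and the 359-base intron at chr19:3980979-3981339 went from 0.197 in mock to 0.019 in tau_agg cells. This was the only 1 of the 463 introns with an expected PSI change of -0.05 or below. BRD2, a bromodomain reader of acetylated histones, had 5 of 6 tested introns called, with log2 values from 0.97 to 1.4 and expected PSI changes from 0.0134 to 0.0573 in the authors' deposited table. RSRC2, an SR-related protein, had all 5 tested introns called, and OVGP1, an oviduct glycoprotein, 5 of 7. OVGP1 paired the read rise with the larger PSI shifts, such as 0.221 to 0.409 for the intron at chr1:111415344-111416323 (log2 2.21 ± 0.37 SE, adjusted p = 2.81e-06 in the authors' deposited table). The largest PSI change among the 463 was in UBE2B, a ubiquitin-conjugating enzyme, whose intron at chr5:134371639-134374383 went from 0.309 to 0.597, with a probability of 0.730 in the authors' deposited table, under the threshold. EGR1, an immediate early factor, had a 688-base intron at 0.280 and 0.414 with a log2 value of 2.32 ± 0.39 (SE, adjusted p = 2.65e-06) in the authors' deposited table. Among the introns with fewer reads were those of HSPBAP1, LINC01876 and SLC16A6P1, with log2 values from -0.82 to -0.65 in the authors' deposited table.

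Introns in genes of the splicing machinery more often had a PSI change above 0 than all introns did, with few large single changes. Of all introns, 54.7% had an expected PSI change above 0, of any size, in the authors' deposited table. For the SR proteins, which bind exons and recruit U1 and U2, it was 83.2% of 101 introns. Their median PSI was 0.276 in mock and 0.302 in tau_agg cells, and their median expected change was 0.00976. For speckle scaffolds and their partners it was 81.1% of 190 introns, with medians of 0.237 and 0.267 and a median expected change of 0.00698. For hnRNP proteins, which often repress splice sites, it was 81.8% of 269, and for U1 and LUC7-like proteins 78.8% of 52. It was lower for U2 and SF3 proteins (74.8% of 107), the minor spliceosome (66.7% of 24) and the kinases of SR proteins (62.4% of 93). For these kinases the median PSI was 0.348 in mock and 0.345 in tau_agg cells, and the median expected change was 0.00135. Lists outside splicing reached similar shares, 76.1% of 234 for S phase genes, 70.5% of 339 for ribosomal proteins, 70.1% of 154 for nonsense-mediated decay factors and 66.0% of 106 for the stress list. By PSI no intron of the SR, speckle, SR kinase, U1 or U2 lists was called. The only call in these lists and the hnRNP list was in HNRNPA2B1, whose entry for the intron at chr7:26174782-26185199 (10416 bases) went from 0.503 in mock to 0.842 in tau_agg cells. The same coordinates are listed under NFE2L3, a transcription factor gene that overlaps it, where the entry went from 0.609 to 0.674 and was not called, so this call rests on 1 of 2 entries. An NFE2L3 intron inside this interval, chr7:26178122-26183701, had more reads in tau_agg cells (log2 0.77 ± 0.17 SE, adjusted p = 0.00168 in the authors' deposited table). The part of NFE2L3 reads in the HNRNPA2B1 value was not tested. Short of a call, SRSF11 stood at 0.846 in mock and 0.601 in tau_agg cells at chr1:70205780-70228422, and SRSF4 at 0.154 and 0.281. THRAP3 stood at 0.178 and 0.341 at chr1:36287270-36289060, and ACIN1, a partner of the exon junction complex, at 0.595 and 0.754. LUC7L3 stood at 0.339 and 0.503 at chr17:50741731-50743706 and, in a second intron, at 0.096 and 0.161. In the U2 and SF3 list SNRPA1 stood at 0.170 and 0.269 and U2AF2 at 0.078 and 0.113, and in the minor spliceosome list 2 introns of RNPC3 went opposite ways, from 0.204 to 0.350 and from 0.906 to 0.778. Among the kinases of SR proteins CLK1 stood at 0.371 and 0.470 and CLK3 at 0.480 and 0.575. None of these introns other than that of HNRNPA2B1 passed the rule.

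By intron reads the same lists held 5 introns with more reads of 27 tested for SR proteins (18.5%), 9 of 55 for speckle scaffolds (16.4%), 2 of 14 for U1 and LUC7-like proteins and 6 of 62 for hnRNP proteins (9.68%). Among all matched introns the share was 2.02%. The SR kinases had none of 23 and the minor spliceosome none of 12. SRRM1, a speckle protein that promotes splicing, had 2 of these introns. That at chr1:24643732-24645984 had a PSI of 0.192 and 0.295 and a log2 value of 0.90 ± 0.21 (SE, adjusted p = 0.00266) in the authors' deposited table. SNRNP70, the U1 70K protein, had an intron at 0.081 and 0.113 with a log2 value of 0.89 ± 0.18 (SE, adjusted p = 2.59e-04) in the authors' deposited table. In both genes the reads rose while PSI moved by about 0.1 or less.

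The lists outside splicing also had more introns above 0 than below in PSI change, to differing degrees. Cytosolic ribosomal proteins had the highest share of introns with more reads, 12 of 41 tested (29.3%), but their median PSI was 0.246 in mock and 0.252 in tau_agg cells. RPL13A had a log2 value of 1.17 ± 0.17 (SE, adjusted p = 2.96e-08) in the authors' deposited table, while its intron PSI was 0.048 and 0.022 and the expected change 0.00653, so that the 2 PSI measures differ in sign there. RPS14 had the largest PSI shift of the list, 0.341 to 0.526, and RPL6 the next, 0.599 to 0.773, both short of a call. Nonsense-mediated decay factors had 4 of 70 introns with more reads, and by PSI SMG1, a kinase of this pathway, stood at 0.156 and 0.253. S phase genes had 7 of 93 introns with more reads, among them 2 of PCNA, the replication clamp, with log2 values of 1.12 ± 0.18 and 1.27 ± 0.22 (SE) in the authors' deposited table. By PSI the S phase gene GINS3 stood at 0.821 and 0.989 and CCNE1, cyclin E1, at 0.311 and 0.198. The heat shock and integrated stress list had the 2 called introns of ATF3 and 4 of 39 introns with more reads. Tau and tubulin genes stayed near the whole set, with 55.8% of 104 introns above 0 in PSI change and 1 of 42 with more reads, in TUBB4B. Its largest PSI shifts were in the gamma-tubulin complex genes TUBGCP6, 0.778 to 0.675, and TUBGCP3, 0.855 to 0.720. In the S phase, nonsense-mediated decay, ribosomal and tubulin lists no intron was called by PSI.

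**Figure D5:**
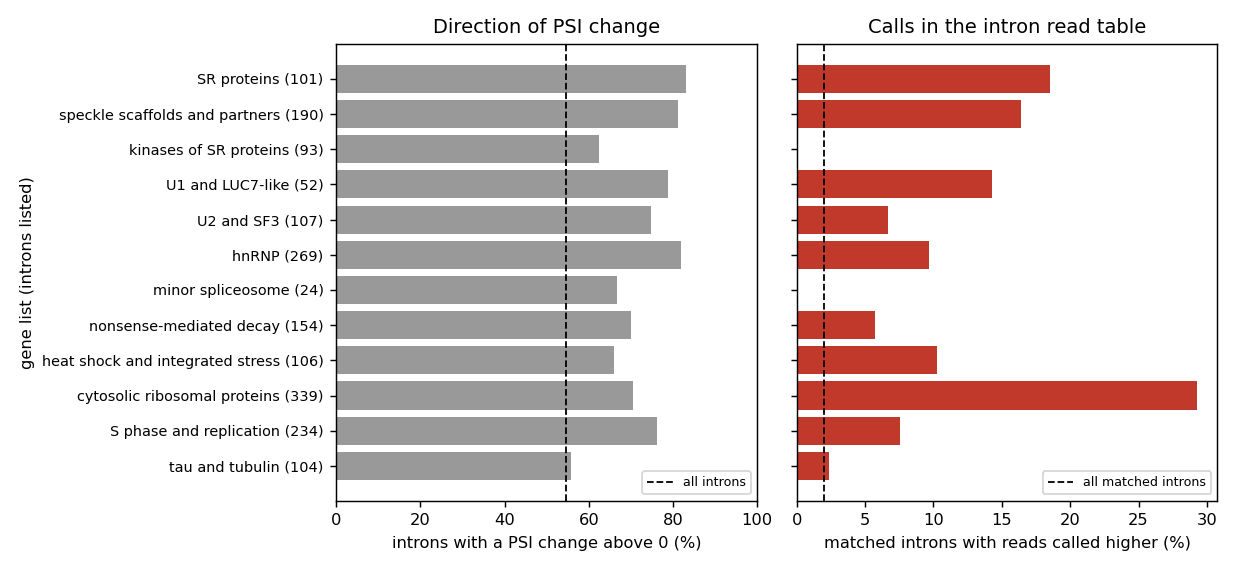
Left, the share of each gene list's introns with an expected PSI change above 0 (x axis, percent), with the share over all introns, 54.7%, as a dashed line. Right, the share of matched introns with more reads at an adjusted p under 0.05 (x axis, percent), with the share over all matched introns, 2.02%, dashed. SR, speckle and hnRNP lists lie above 80% at the left, and ribosomal proteins are highest at the right.

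Whether the host genes' transcripts were in sorted tau aggregates was read from the separate 24 h libraries, with 2 libraries a group and levels only. Of 9619 genes with a mean of at least 5 FPKM, 40.5% had both aggregate libraries above both total libraries and 39% had both below. Of the 28 hosts of introns called higher by PSI that reached this level, 16 were above (57.1%) and 10 below (35.7%). BRF1 stood at 15.8 and 14.1 FPKM in total and at 43.1 and 46.0 in aggregate libraries, and CAPN15, a calpain chosen after its values were seen, at 21 and 16.8 against 61.3 and 70.8. KLHDC4 stood at 9.17 and 10.3 against 27.8 and 31.6. HNRNPA2B1 lay the other way, at 256 and 261 in total and 143 and 127 in aggregate libraries, and so did ZFR, at 49.8 and 51.1 against 35.5 in each. ATF3 stood at 24.9 and 21.8 in total and 34.4 and 38.4 in aggregate libraries. Of the 5 hosts of introns called lower, 4 were above and 1, USP7, below.

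Hosts of the introns with more reads showed another balance. Of 304 that reached 5 FPKM, 75 were above in aggregate libraries (24.7%) and 185 below (60.9%). EEF2 stood at 1319 and 1285 FPKM in total and 811 and 700 in aggregate libraries, and PCNA at 197 and 208 against 41.5 and 38.5. SQSTM1 and OVGP1 were among those above, SQSTM1 with 33.4 and 34.4 in total against 53.0 and 48.9 in aggregate libraries. FPKM is given per gene, so it does not tell spliced from intron-bearing transcripts, and no mock group is among the 24 h libraries. The hosts had a median of 29 FPKM over the 4 libraries, against 2.17 for all 23674 genes listed. Those include genes under 5 FPKM, which the balance left out, so the gap in level to the background of the balance is not given. The part of gene level in this balance was not tested.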

How the data were processed

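The authors aligned reads with STAR 2.6.0c to hg38, per the submitters' processing notes; no source used here states the filters and models behind the 96 h files. The deposited splicing table holds, per variation, expected PSI of each group, the expected change and its probability, per the file headers. The deposited intron read table holds a mean normalized count (a signal of read coverage, not raw counts), a log2 fold change with its standard error, and p-values, per the file headers. FPKM values per library were deposited for 24 h. From these, with Python 3.11.15 and pandas 2.3.3, the last entry of each variation ending in an intron was taken, entries of 1 coordinate were averaged, and an intron was called where at least 1 entry passed (change of at least 0.1, probability of at least 0.95) and none passed the other way. The read table was joined by chromosome and exact coordinates, and gene names came from it (63797 introns). Intervals are written from the last base of 1 exon to the first base of the next, and lengths leave out both. The calling code was tested on simulated data. No test was run on plates, because no 96 h file holds values per plate. Introns and gene lists were chosen with earlier results of these data known. Named introns were the 10 largest changes per direction, 1 per gene, without clone, predicted or pseudogene names, all genes with at least 3 called introns, the called introns of the gene lists (or the 2 largest changes) and the called introns with the highest read counts. The column for the probability of little change was not used. Some introns that these rules name are not reported here.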

Additional observations from a re-analysis of the deposited data

How the results depend on the processing

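The counts of called introns, 57 higher and 14 lower, stayed within 1.5 times at a probability of 0.90, with a change of at least 0.2, with every entry required to pass and without the 2 clone-named chromosome 21 genes, the last being chosen after seeing the data. At a probability of 0.50 they were 132 and 66. Source variations alone gave 34 and 8, target variations alone 26 and 6, and variations with a single junction beside the intron 17 and 4, in each case from fewer introns. The share of higher introns, 57.7%, was 55% in target variations, 54.7% for any change, and 52.8% with the difference of the 2 expected PSI values, chosen after seeing the data. With that difference the median change was 0.001 in place of 0.000149. At an adjusted p under 0.01, 193 matched introns had more reads and 1 had fewer, in place of 463 and 4. No setting turned a direction. No paired analysis was possible because the 96 h files hold no value per plate. No file gives the depth behind a PSI value at 96 h, so none has a counting error.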
